A study of Mus musculus with 20 samples.

Results

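Organoids grown from mammary tumors of MMTV-PyMT mice were compared with organoids grown from mammary tumors of MMTV-Neu-NDL mice, both after 6 days of culture. The comparison rests on 7 of the 20 libraries of the series. The PyMT side holds 4 libraries: replicates 1 and 2 of the PyMT organoids titled day 6 (dated libraries), and replicates 1 and 2 of PyMT organoids whose titles give no day but whose records give the same 6 days (undated libraries). The Neu-NDL side holds 3 libraries. Replicate 3 of the day 6 PyMT organoids was left out by rule because its profile resembled that of a tumor section. The libraries were thus selected on measured expression. The cell type marker lists used for this are described below without a test. Other genes were tested, among them genes in which the left-out library also lay far from the other PyMT libraries. Their p-values depend on leaving it out, and its values are given beside many of the results. Of 45318 gene IDs in the tables, 17743 passed a filter on low counts and were tested.

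All mice were of the FVB strain. In MMTV-PyMT mice the mouse mammary tumor virus promoter drives the middle T antigen of polyoma virus in mammary epithelium, and in MMTV-Neu-NDL mice the same promoter drives an activated form of the Neu receptor. Organoids, which are fragments of epithelium freed from the tissue, were embedded in Matrigel, a gel of basement membrane proteins, with the growth factor FGF2. Wild type mammary organoids kept for the same 6 days (WT, n = 3) entered the same fit and are given as the normal level. Nothing in the labels says that replicates are separate mice, and p-values refer to the variation among these libraries, which may be technical.

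Both oncogenes act at the inner face of the cell membrane. Middle T antigen has no enzyme activity of its own and works by binding Src family kinases, protein phosphatase 2A, the adaptor Shc and phosphatidylinositol 3-kinase. Neu is the rodent form of ErbB2 (HER2), a receptor tyrosine kinase of the EGF receptor family that binds no ligand and signals in pairs with ErbB3 and other members. Both feed the Ras-MAPK and PI3K-Akt pathways, and the tumors of both models have a mainly luminal character.

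Gene counts summed to between 19046725 and 48341438 per library, and 1.49 to 6.04% of those reads were mitochondrial, with undated PyMT replicate 1 at the top. The dispersion between replicates, as a biological coefficient of variation, was 0.337 between the dated PyMT libraries, 0.25 between the undated ones and 0.252 to 0.41 among Neu-NDL libraries, whereas PyMT day 6 replicate 3 differed from its 2 fellow replicates by 0.469 and 0.521. Over genes, the log2 CPM of that library correlated best with PyMT tumor section replicate 3 (Pearson's r 0.991, the highest of all pairs of libraries), and with the other day 6 replicates by 0.906 and 0.865, so that it goes against its label and each value given with it in is to be read with that doubt. Dated and undated PyMT libraries did not differ at an adjusted p under 0.05 at any gene in edgeR's quasi-likelihood test (1510 genes at an unadjusted p under 0.05). Levels are in CPM, counts scaled to the library's size as in the fit and not divided by gene length, so each level is set only against the same gene in other libraries. Markers of luminal epithelium were abundant on both sides: the 22 genes summed to between 8285 and 9214 CPM in PyMT libraries, 5999 to 7374 CPM in Neu-NDL libraries and 8512 to 8852 CPM in WT libraries. *Epcam*, the epithelial adhesion molecule, had 1697, 1077, 2124 and 2151 CPM in PyMT libraries, against 972, 1492 and 1572 CPM in Neu-NDL libraries.

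In PyMT organoids, 1277 genes were higher and 1938 lower than in Neu-NDL organoids at a Benjamini-Hochberg adjusted p under 0.05 in edgeR's quasi-likelihood test, which is 7.20% and 10.9% of all genes tested and 18.1% together. The median log2 fold change over all genes was -0.065. Of these genes, 410 higher and 602 lower ones kept their call when each of the 10 libraries of the fit was left out in turn. With PyMT day 6 replicate 3 kept in, the counts fell to 234 higher (1.30%) and 476 lower (2.65%), 3.95% together, and 173 and 270 genes passed both requirements. Of the 1277 higher genes, the left-out replicate lay above every Neu-NDL library at 46.6%, within their range at 25.2% and below all of them at 28.2%. Of the 1938 lower genes it lay below every Neu-NDL library at 45.8%, within their range at 36.4% and above all of them at 17.9%. Across all genes tested it lay above all Neu-NDL libraries at 33.4% and below all of them at 36.8%.

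**Figure D1:**
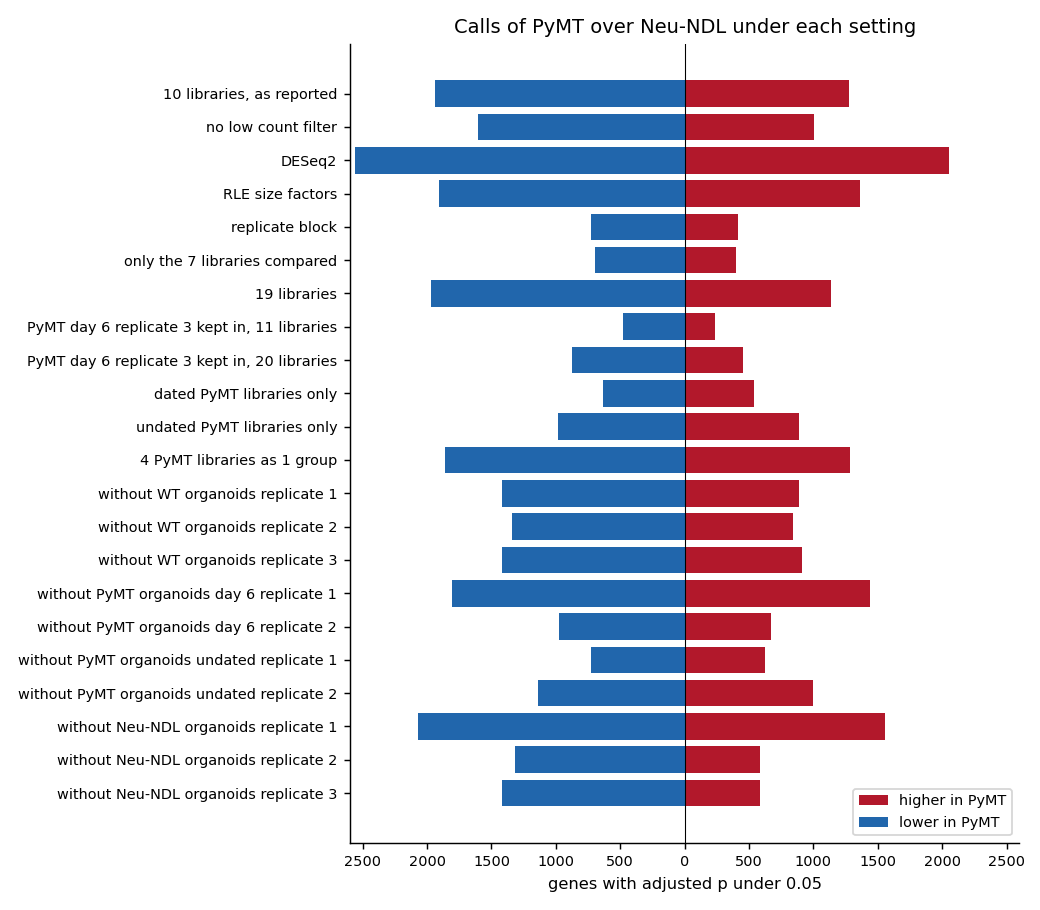
Bars give the number of genes with an adjusted p under 0.05, higher in PyMT to the right and lower in PyMT to the left, for each way of fitting the comparison (rows). The count was lowest in both directions with PyMT day 6 replicate 3 kept in (234 higher and 476 lower), against 1277 and 1938 without it.

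Where a gene described below lost its call without 1 of the 10 libraries, this is said beside it or beside its list. With PyMT day 6 replicate 3 kept in, the called genes described below that stayed called were *Erbb2*, *Erbb4*, *Dusp6*, *Gab1*, *Krt7*, *Cd24a*, *Kit*, *Slit1*, *Saa1*, *Car13*, *Scn8a*, *Birc5*, *Cdc20*, *Rps2*, *Fosb*, *Jun*, *Hspb1*, *Dll1*, *Eya1*, *Lmx1b*, *Reln*, *Slc25a34*, *Slc39a8*, *Cd177*, *Fetub*, *Dlk1*, *Siglec1*, *Gpnmb*, *Mmp12*, *Lyz1*, *Fgf9*, *Fgf10*, *C530043A13Rik* and *Kcnq1ot1*, and the other tested ones were not called. The 3 lists with the largest share of members higher in PyMT organoids were mitosis genes, basal and myoepithelial genes and secreted proteins of glands, and the 2 with the largest share lower, among lists that were not used to leave out a library, were ion channels and carriers and interferon response genes. The lists were chosen with earlier results of these data known, so this order describes the lists only. Each count of called list members below is to be read beside the shares over all genes tested, 7.20% higher and 10.9% lower.

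**Figure D2:**
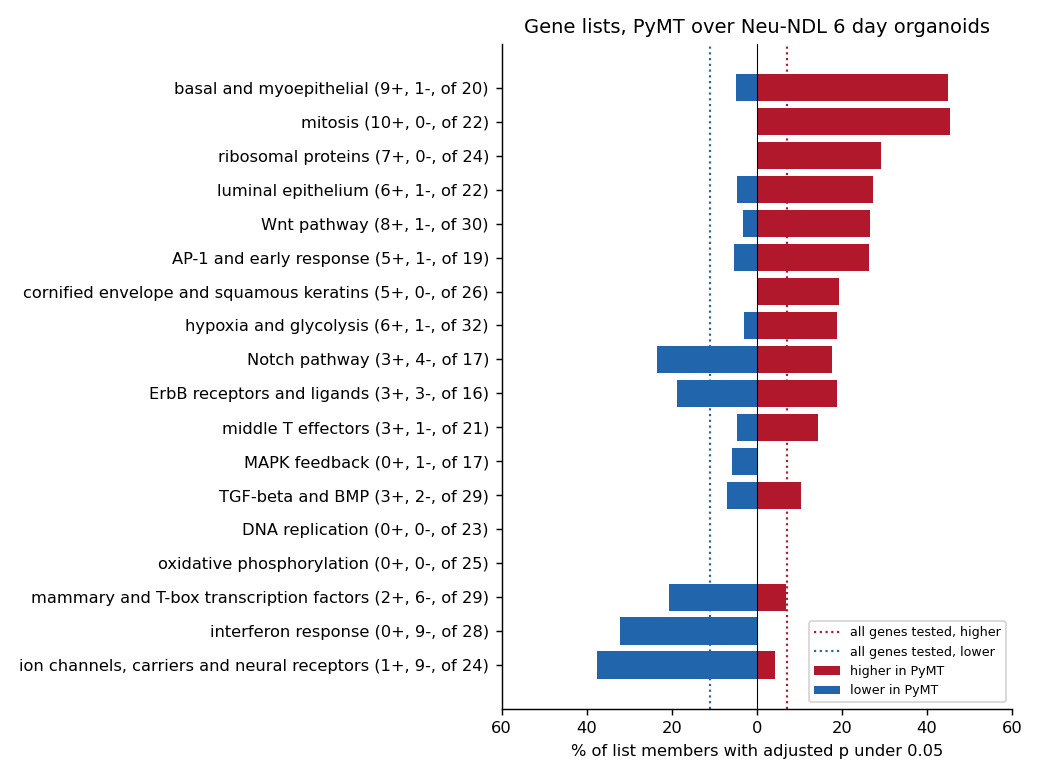
Bars give the share of each list's tested members, in percent, that passed the test, higher in PyMT organoids to the right and lower to the left, with counts in the row labels. Dotted lines mark the shares over all genes tested, 7.20% higher and 10.9% lower.

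*Erbb2* had 104, 144, 105 and 92.9 CPM in PyMT organoids, against 5614, 4414 and 8311 CPM in Neu-NDL organoids. WT organoids had 88.3, 92.4 and 95.1 CPM. The gene fell by 5.79 on the log2 scale (SE 0.27, adjusted p 5.98e-05, edgeR), a 55.1-fold difference, and kept its call in every alternative fit of the organoid comparison. It lies on chromosome 11 at 98412470 to 98437716 (GRCm38, + strand), and the counts do not tell reads of the Neu transgene from reads of the mouse gene. The left-out PyMT replicate had 104 CPM.

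The ErbB family of receptors and ligands moved in both directions, with 3 of 16 tested members higher and 3, *Erbb2* among them, lower. The higher count fell to 1 without any WT library, PyMT day 6 replicate 2, undated replicate 2 or Neu-NDL replicate 1 or 3. *Erbb4*, a receptor for neuregulins, had 0.543, 0.202, 0.739 and 0.108 CPM in PyMT organoids, against 7.33, 7.57 and 13.1 CPM in Neu-NDL organoids and 1.69 to 5.11 CPM in WT organoids. It fell by 4.56 (SE 0.67, adjusted p 0.00433) and stayed called with the left-out replicate in. *Egf*, a ligand of the EGF receptor, had 2.77, 1.42, 1.64 and 2.09 CPM in PyMT libraries, against 6.60, 8.99 and 10.2 CPM in Neu-NDL libraries, with a log2 difference of -2.12 (SE 0.30, adjusted p 0.00381). *Nrg1*, which encodes a ligand of ErbB3 and ErbB4, went the other way, with 12.8, 13.2, 15.8 and 10.8 CPM in PyMT libraries against 6.16, 4.12 and 6.90 CPM in Neu-NDL libraries (log2 fold change 1.197, SE 0.24, adjusted p 0.0135). The left-out PyMT replicate stood far above both sides in *Egf* (30.0 CPM) and *Nrg1* (86.2 CPM), and neither was called with it in. The receptor *Erbb3*, the usual partner of ErbB2, did not pass the test, with 198, 366, 211 and 160 CPM in PyMT libraries and 224, 336 and 322 CPM in Neu-NDL libraries.

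Among 17 genes of MAPK feedback, 1 was lower and none higher in edgeR's test (4 lower and 2 higher at an unadjusted p under 0.05; DESeq2 called 3 lower and 2 higher). *Dusp6*, a phosphatase that switches off ERK and is itself induced by it, had 258, 125, 465 and 387 CPM in PyMT libraries, against 557, 806 and 1076 CPM in Neu-NDL libraries, with WT libraries at 338 to 483 CPM. It fell by 1.51 (SE 0.29, adjusted p 0.0121) and stayed called with the left-out replicate in. *Spry4*, another inhibitor of the pathway, had 60.2, 11.7, 57.5 and 26.6 CPM in PyMT libraries and 97.4, 106 and 102 CPM in Neu-NDL libraries, and missed the threshold (adjusted p 0.0652). Of 21 proteins that carry middle T signals, 3 were higher and 1 lower, and 1 was higher without any WT library, undated PyMT replicate 1 or Neu-NDL replicate 2 or 3. *Gab1*, a docking adaptor for PI3K, had 55.7, 68.9, 89.1 and 62.2 CPM in PyMT libraries, against 40.1, 43.5 and 41.0 CPM in Neu-NDL libraries (log2 fold change 0.73, SE 0.15, adjusted p 0.0158). *Pik3cd*, a PI3K catalytic subunit known mostly from white blood cells, had 0.708 to 1.52 CPM in PyMT libraries and 5.14 to 12.3 CPM in Neu-NDL libraries (log2 fold change -2.84, SE 0.41, adjusted p 0.00413), and macrophage markers, given below, were lower on the same side. Their part in the *Pik3cd* result was not tested.

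**Figure D3:**
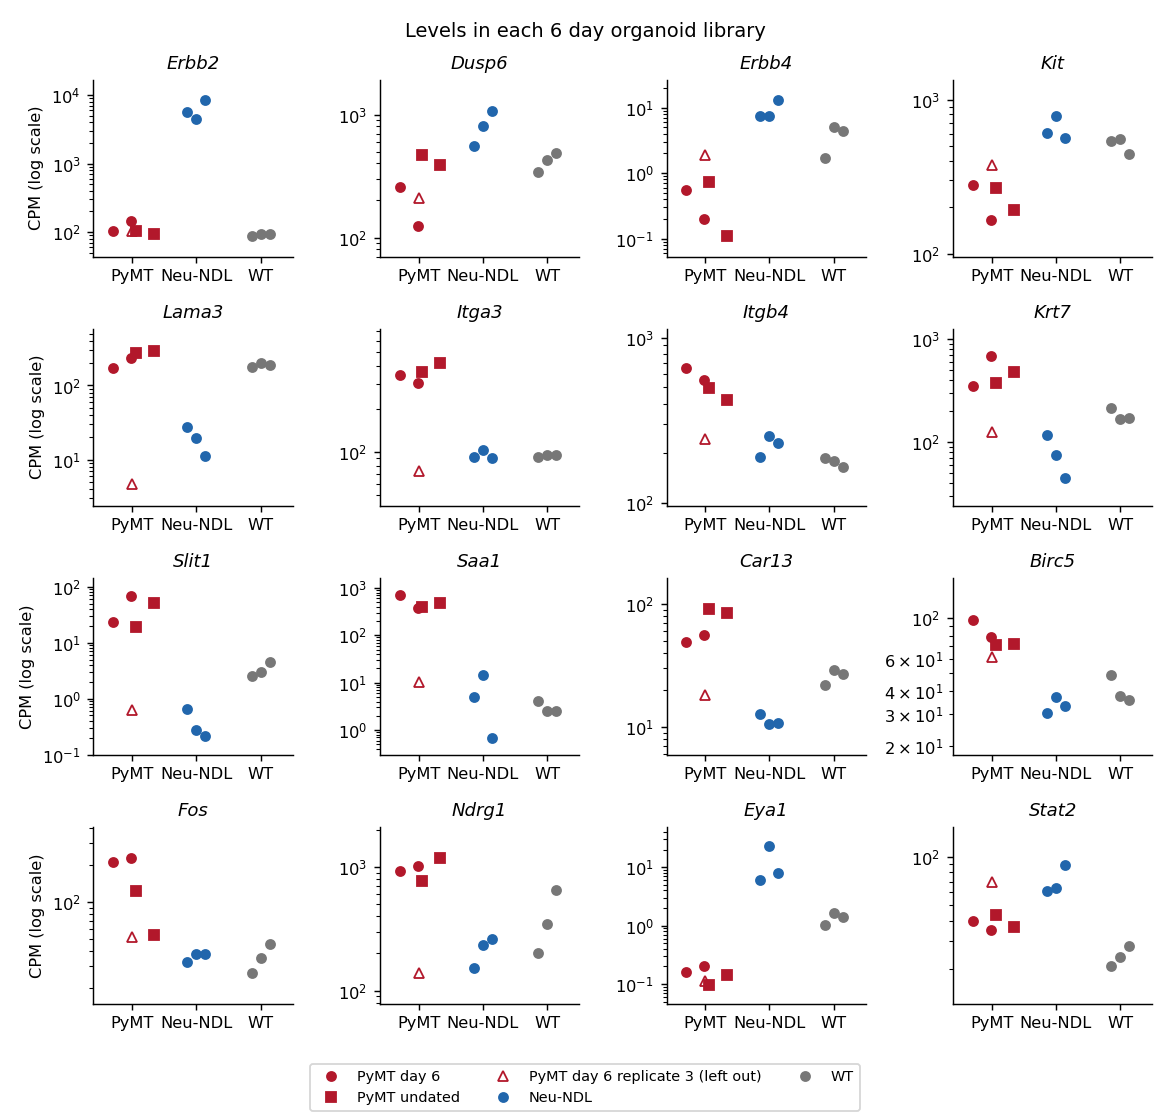
Levels in CPM on a log axis for 16 named genes in each 6 day organoid library: PyMT (red; circles dated, squares undated, open triangle the left-out day 6 replicate 3), Neu-NDL (blue) and WT (grey). Erbb2 lies at 92.9 to 144 CPM in the PyMT libraries and at 104 CPM in the left-out one, while in Lama3 and Itga3 the left-out library lies below all Neu-NDL libraries.

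Basal and myoepithelial genes were higher in PyMT than in Neu-NDL organoids: 9 of 20 tested members passed the test upward and 1 downward, with a median log2 fold change of 0.83. Over WT organoids the median log2 fold change of the list was -0.31 in PyMT and -2.59 in Neu-NDL organoids. Among the members called higher were *Lama3*, *Itgb4*, *Lamb3*, *Cdh3*, *Krt17*, *Jag2*, *Trp63* and *Krt14*. *Lama3* and *Lamb3* encode chains of laminin, a basement membrane protein to which basal epithelial cells anchor. *Lama3* had 174, 236, 277 and 296 CPM in PyMT libraries, against 27.3, 19.3 and 11.1 CPM in Neu-NDL libraries, with WT libraries at 176 to 200 CPM. It rose by 3.66 (SE 0.30, adjusted p 0.000952). *Lamb3* had 449, 368, 670 and 612 CPM in PyMT libraries, against 160, 60.6 and 31.1 CPM in Neu-NDL libraries (log2 fold change 2.61, SE 0.49, adjusted p 0.0104). All 4 PyMT libraries lay above all 3 Neu-NDL libraries for both genes, as they did in 12.9% of all genes tested.

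*Itgb4*, the integrin subunit of hemidesmosomes, had 659, 558, 496 and 417 CPM in PyMT libraries, against 189, 256 and 230 CPM in Neu-NDL libraries, with a log2 difference of 1.23 (SE 0.16, adjusted p 0.00245). *Itga3*, a subunit of another integrin and not a member of the list, had 345, 304, 366 and 419 CPM in PyMT libraries, against 92.8, 103 and 90.7 CPM in Neu-NDL libraries and 92.8 to 95.2 CPM in WT libraries (log2 fold change 1.90, SE 0.12, adjusted p 0.000283). *Itga6*, the partner of *Itgb4*, missed the threshold (0.29, adjusted p 0.404). The left-out PyMT replicate had only 4.69 CPM of *Lama3*, 63.5 of *Lamb3* and 73.3 of *Itga3*, and no member of the list was called with it in. Its 20 basal genes summed to 1150 CPM, against 4377 to 9661 CPM in the 4 PyMT libraries and 1514 to 2523 CPM in Neu-NDL libraries. The same 20 genes summed to 4803 to 5272 CPM in WT libraries.

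Keratins of basal cells varied more within each side. *Krt14* had 758, 4365, 700 and 1532 CPM in PyMT libraries, against 143, 269 and 15.2 CPM in Neu-NDL libraries, and kept its call in 3 of 10 leave-outs (log2 fold change 3.57, SE 0.97, adjusted p 0.0359). Its partner *Krt5*, at 272 to 1810 CPM in PyMT libraries and 15.5 to 224 CPM in Neu-NDL libraries, missed the threshold (adjusted p 0.0541). *Trp63*, the transcription factor of basal cells, had 55.8, 160, 118 and 80.0 CPM in PyMT libraries and 25.2, 22.3 and 3.92 CPM in Neu-NDL libraries (log2 fold change 2.60, SE 0.62, adjusted p 0.0239), a call lost without PyMT day 6 replicate 2 or undated replicate 1. The smooth muscle genes of the list did not rise with them. *Tagln*, an actin binding protein of contractile cells, fell by 1.33 (SE 0.30, adjusted p 0.0209), at 5.05 to 6.33 CPM in PyMT libraries, 7.46 to 19.2 CPM in Neu-NDL libraries and 122 to 203 CPM in WT libraries. That call was lost without any of 4 libraries: PyMT day 6 replicate 2, either undated replicate, or Neu-NDL replicate 3. *Acta2*, smooth muscle actin, did not pass the test, at 13.8 to 39.7 CPM in PyMT libraries, 16.7 to 61.8 CPM in Neu-NDL libraries and 468 to 676 CPM in WT libraries.

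Desmosome and cornified envelope genes, which build the tough layers of squamous epithelium, had 5 of 26 tested members higher and none lower (none lower in edgeR at an unadjusted p under 0.05 or in DESeq2), with a median of 1.12. The other 21 were not called, and their log2 fold changes went in both directions. *Dsp*, the desmosomal plaque protein desmoplakin, had 815, 1937, 905 and 748 CPM in PyMT libraries, against 309, 422 and 341 CPM in Neu-NDL libraries (log2 fold change 1.58, SE 0.29, adjusted p 0.00917). Of squamous genes outside the list, *Cdsn*, the corneodesmosome protein, had 19.04, 175, 19.3 and 44.5 CPM in PyMT libraries, against 2.79, 1.64 and 1.46 CPM in Neu-NDL libraries (log2 fold change 4.82, SE 0.77, adjusted p 0.00619). *Klk7*, a protease that cuts corneodesmosomes, had 10.4, 295, 10.8 and 35.1 CPM in PyMT libraries, against 0.242, 0.585 and 0.117 CPM in Neu-NDL libraries (log2 fold change 7.59, SE 1.30, adjusted p 0.00790). PyMT day 6 replicate 2 was the highest library in all 3 genes. In *Krt90*, a keratin, it stood alone, with 464 CPM against 1.25, 0.996 and 1.29 CPM in the other PyMT libraries. *Tgm1*, *Pkp1*, *Evpl* and *Dsg3* also passed the test, but leaving out undated PyMT replicate 1 or 2 left 1 of the 5 list members called. The left-out replicate was low in *Klk7* (0.0375 CPM), *Cdsn* (1.35 CPM) and *Dsp* (115 CPM), and no member of the list was called with it in.

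Luminal genes had 6 of 22 tested members higher and 1 lower, with a median of 0.43. *Krt7*, a simple epithelial keratin, had 354, 684, 373 and 478 CPM in PyMT libraries, against 118, 76.1 and 44.7 CPM in Neu-NDL libraries (log2 fold change 2.56, SE 0.36, adjusted p 0.00391). *Cd24a*, a surface marker used to sort mammary epithelium, had 298, 329, 395 and 307 CPM in PyMT libraries, against 175, 122 and 120 CPM in Neu-NDL libraries (log2 fold change 1.26, SE 0.19, adjusted p 0.00437). *Kit*, the receptor that marks luminal progenitors, was the member that fell. It had 280, 166, 266 and 193 CPM in PyMT libraries, against 608, 778 and 560 CPM in Neu-NDL libraries and 445 to 551 CPM in WT libraries (log2 fold change -1.52, SE 0.22, adjusted p 0.00409). These 3 genes kept their calls in every leave-out and with the left-out replicate in. *Krt19*, *Muc1*, *Aldh1a3* and *Cdh1* were called too, each losing the call without at least 1 library, and without undated PyMT replicate 1 or Neu-NDL replicate 2 only 2 of the 6 remained.

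Milk genes did not move as 1 group, with 4 of 16 tested members higher and 3 lower, or 2 and 0 without undated PyMT replicate 1. *Wap*, whey acidic protein, had 5.05, 8.22, 6.33 and 2.95 CPM in PyMT libraries, against 1.01, 0.167 and 0.258 CPM in Neu-NDL libraries (log2 fold change 3.51, SE 0.65, adjusted p 0.0102). *Csn3*, kappa casein, was lower, with 1929, 315, 3113 and 1962 CPM in PyMT libraries, against 5467, 9423 and 10490 CPM in Neu-NDL libraries (log2 fold change -2.33, SE 0.55, adjusted p 0.0238), and this call was lost without either undated PyMT replicate or without Neu-NDL replicate 2 or 3. The left-out PyMT replicate had 109 CPM of *Wap* and 14660 CPM of *Csn3*.

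Secreted proteins of glands were called in both directions, 5 of 16 tested members higher and 3 lower, with a median of -0.17, and 1 was lower without undated PyMT replicate 1. *Lyz1*, a lysozyme of the gut, had 0, 0, 0.386 and 0.683 CPM in PyMT libraries, against 15.9, 169 and 2.07 CPM in Neu-NDL libraries, and lost its call (adjusted p 0.0128) without either undated PyMT replicate. *Lyz2*, the lysozyme of macrophages, whose markers were lower on the same side, had 9.49 to 65.3 CPM in PyMT libraries and 202 to 1496 CPM in Neu-NDL libraries. The part of the macrophage markers in it was not tested. *Slit1*, a secreted guidance protein best known from axon repulsion, had 23.1, 67.7, 18.7 and 52.4 CPM in PyMT libraries, against 0.646, 0.278 and 0.211 CPM in Neu-NDL libraries and 2.55 to 4.57 CPM in WT libraries. It rose by 6.69 (SE 0.69, adjusted p 0.00119) and stayed called with the left-out replicate in, though that library held 0.637 CPM, within the Neu-NDL range. *Saa1*, an acute phase protein, had 718, 376, 391 and 483 CPM in PyMT libraries, against 4.90, 14.3 and 0.681 CPM in Neu-NDL libraries and 2.54 to 4.19 CPM in WT libraries (log2 fold change 6.21, SE 0.93, adjusted p 0.00484). *Saa2*, its near-identical neighbour with which reads may be shared, rose by 6.14 (SE 0.96, adjusted p 0.00579). The left-out replicate had 10.3 CPM of *Saa1*, within the Neu-NDL range. *Car13*, a carbonic anhydrase named after its values were seen, had 49.1, 55.6, 91.3 and 84.2 CPM in PyMT libraries, against 12.8, 10.6 and 10.7 CPM in Neu-NDL libraries (log2 fold change 2.58, SE 0.15, adjusted p 0.000181). *Scn8a*, a sodium channel likewise named afterwards, had 21.8, 20.9, 20.5 and 14.4 CPM in the 4 PyMT libraries and 25.9 CPM in the left-out one. Neu-NDL libraries had 4.16, 3.56 and 2.54 CPM (log2 fold change 2.495, SE 0.24, adjusted p 0.00116). In *Lyz1* too the left-out replicate lay on the PyMT side, below all Neu-NDL libraries.

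Mitosis genes were higher in PyMT organoids in 10 of 22 tested members and lower in none, with a median of 0.74. *Birc5*, survivin of the chromosomal passenger complex, had 97.6, 78.6, 71.3 and 71.8 CPM in PyMT libraries, against 30.5, 37.1 and 33.1 CPM in Neu-NDL libraries and 35.9 to 48.8 CPM in WT libraries (log2 fold change 1.24, SE 0.15, adjusted p 0.00222). *Cdc20*, the activator of the anaphase promoting complex, had 122, 119, 107 and 88.1 CPM in PyMT libraries, against 41.7, 56.4 and 37.0 CPM in Neu-NDL libraries (log2 fold change 1.27, SE 0.21, adjusted p 0.00619). The left-out replicate had 61.5 CPM of *Birc5* and 79.5 CPM of *Cdc20*, above all Neu-NDL libraries, and both stayed called with it in. *Ccnb2*, a mitotic cyclin (log2 fold change 0.81, adjusted p 0.0172), and *Aurkb*, the kinase of the same passenger complex (0.79, adjusted p 0.0178), lost their calls without undated PyMT replicate 1. Without that library 2 of the 22 were called, and likewise with the left-out replicate in. *Mki67*, the proliferation antigen, did not pass the test, with 594, 543, 914 and 368 CPM in PyMT libraries and 243, 461 and 385 CPM in Neu-NDL libraries. DNA replication genes were called in neither direction in 23 tested members by edgeR (1 higher and 3 lower at an unadjusted p under 0.05; DESeq2 called 1 and 3), with a median of -0.26.

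Ribosomal protein genes were higher in 7 of 24 tested members and lower in none, with a median of 0.54. *Rps2*, of the small subunit, had 528, 512, 823 and 665 CPM in PyMT libraries, against 386, 364 and 264 CPM in Neu-NDL libraries and 550 to 601 CPM in WT libraries (log2 fold change 0.88, SE 0.17, adjusted p 0.0113). It kept its call in every leave-out, whereas without PyMT day 6 replicate 2 it was the only member of the list called. Ribosomal protein genes have many processed pseudogenes, and reads may be split between the copies. Nuclear genes of oxidative phosphorylation were called in neither direction among 25 tested members by edgeR (2 higher and 1 lower at an unadjusted p under 0.05; DESeq2 called 1 higher), with a median of -0.09.

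Hypoxia and glycolysis genes were higher in 6 of 32 tested members and lower in 1, with a median of 0.34. *Ndrg1*, a stress gene induced by low oxygen, had 924, 1027, 774 and 1187 CPM in PyMT libraries, against 152, 232 and 262 CPM in Neu-NDL libraries and 203 to 649 CPM in WT libraries (log2 fold change 2.18, SE 0.40, adjusted p 0.00984). *Slc16a3*, a lactate exporter, had 284, 366, 298 and 335 CPM in PyMT libraries, against 112, 72.6 and 27.5 CPM in Neu-NDL libraries (log2 fold change 2.18, SE 0.43, adjusted p 0.0127). *Slc2a1*, the glucose transporter GLUT1, rose by 1.17 (SE 0.21, adjusted p 0.00905), and *P4ha2*, a collagen prolyl hydroxylase subunit, by 1.79 (SE 0.32, adjusted p 0.00856). These 4 kept their calls in every leave-out. In the left-out replicate *Ndrg1* (139 CPM), *Slc16a3* (12.8 CPM), *Slc2a1* (134 CPM) and *P4ha2* (18.4 CPM) were below all Neu-NDL libraries, and none of the 4 was called with it in. *Vegfa*, the angiogenic factor, had 629, 818, 695 and 989 CPM in PyMT libraries and 403, 492 and 479 CPM in Neu-NDL libraries, and missed the threshold (adjusted p 0.0592).

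Early response genes of the AP-1 list were higher in 5 of 19 tested members and lower in 1, or in 3 and 0 without undated PyMT replicate 1 or Neu-NDL replicate 2 or 3. *Fos* had 211, 229, 123 and 53.3 CPM in PyMT libraries, against 32.4, 37.6 and 37.4 CPM in Neu-NDL libraries (log2 fold change 1.96, SE 0.29, adjusted p 0.00479). Its relative *Fosb* had 10.04, 8.70, 5.17 and 1.19 CPM in PyMT libraries, against 0.828, 0.863 and 0.822 CPM in Neu-NDL libraries (log2 fold change 2.70, SE 0.48, adjusted p 0.00847). For both genes undated replicate 2 was the lowest PyMT library. *Jun*, the partner of the Fos proteins, had 102, 154, 127 and 113 CPM in PyMT libraries, against 75.1, 44.8 and 39.5 CPM in Neu-NDL libraries (log2 fold change 1.22, SE 0.24, adjusted p 0.0122). In a separate list of 21 tested unfolded protein and heat shock genes, 3 were higher and 2 lower, with a median of 0.01. The lower count fell to 0 without undated PyMT replicate 1 or Neu-NDL replicate 2 or 3. Its member *Hspb1*, the small heat shock protein HSP27, had 107, 168, 96.5 and 120 CPM in PyMT libraries, against 47.2, 28.8 and 25.0 CPM in Neu-NDL libraries (log2 fold change 1.86, SE 0.26, adjusted p 0.00381). *Fosb*, *Jun* and *Hspb1* stayed called with the left-out replicate in, and *Fos*, at 51.4 CPM there, did not.

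Of 17 tested genes of the Notch pathway, 3 were higher and 4 lower (2 lower without undated PyMT replicate 1), and the ligands divided by family. The 2 Jagged ligands rose. *Jag1* had 49.8, 131, 60.2 and 69.2 CPM in PyMT libraries, against 18.2, 10.9 and 10.9 CPM in Neu-NDL libraries (log2 fold change 2.52, SE 0.37, adjusted p 0.00473). *Jag2* had 32.2, 92.4, 54.9 and 61.8 CPM in PyMT libraries, against 18.8, 15.6 and 5.68 CPM in Neu-NDL libraries (log2 fold change 2.17, SE 0.45, adjusted p 0.0159). The Delta ligands *Dll1* and *Dll4* fell. *Dll1* had 34.0, 22.7, 30.3 and 23.3 CPM in PyMT libraries, against 123, 66.6 and 86.6 CPM in Neu-NDL libraries (log2 fold change -1.74, SE 0.26, adjusted p 0.00474). *Dll4*, known mainly from endothelium, had 0.488 to 0.809 CPM in PyMT libraries and 2.76 to 5.73 CPM in Neu-NDL libraries (log2 fold change -2.56, SE 0.38, adjusted p 0.00473). The 4 ligands were called in every leave-out, and *Dll1* alone of them stayed called with the left-out replicate in, which had 39.1 CPM of *Dll1* and 21.3 CPM of *Dll4*.

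Wnt pathway genes were higher in 8 of 30 tested members and lower in 1, with a median of 0.73. *Tcf7*, a nuclear effector and target of the pathway, had 17.96, 67.8, 32.2 and 31.7 CPM in PyMT libraries, against 5.99, 5.01 and 3.69 CPM in Neu-NDL libraries (log2 fold change 2.92, SE 0.44, adjusted p 0.00490), and was the 1 member called in every leave-out. Without PyMT day 6 replicate 2, Neu-NDL replicate 2 or Neu-NDL replicate 3, 2 members were called. *Axin2*, a feedback target of Wnt signalling, differed by library, with 0.868, 78.8, 0.546 and 0.108 CPM in PyMT libraries and 1.13, 0.529 and 0.235 CPM in Neu-NDL libraries, so that PyMT day 6 replicate 2 alone was high and the gene did not pass the test (adjusted p 0.172). Of 29 tested genes of TGF-beta and BMP signalling 3 were higher and 2 lower, and of 15 of the FGF pathway 1 was higher and 3 lower. Of all genes tested, 7.20% were higher and 10.9% lower, so these counts are not read as a result about either pathway. The lower counts of both lists fell to 0 without PyMT day 6 replicate 2 or undated replicate 2. *Bmp7*, a bone morphogenetic protein, rose by 1.196 (SE 0.22, adjusted p 0.00897). *Fgfbp1*, which carries FGF from the matrix, rose by 3.57 (SE 0.54, adjusted p 0.00496), with 67.0, 151, 74.5 and 138 CPM in PyMT libraries against 15.3, 8.41 and 3.43 CPM in Neu-NDL libraries. *Bmp7* and *Fgfbp1* were low in the left-out replicate (0.562 and 2.10 CPM in that order) and were not called with it in. *Fgf9*, an epithelial growth factor, was lower (adjusted p 0.0191), with 0.0321 to 0.0719 CPM in PyMT libraries and 0.242, 1.42 and 2.94 CPM in Neu-NDL libraries. *Fgf10*, known from mammary stroma, was lower too (adjusted p 0.0230), with 0 to 0.0964 CPM in PyMT libraries and 3.45, 0.362 and 0.211 CPM in Neu-NDL libraries. Both stayed called with the left-out replicate in, but not without PyMT day 6 replicate 2 or either undated replicate. *Fgf2*, also supplied in the culture, had 2.06 to 2.83 CPM in PyMT libraries and 3.24 to 11.6 CPM in Neu-NDL libraries (log2 fold change -1.43, SE 0.41, adjusted p 0.0417), and kept its call in 1 of 10 leave-outs.

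Genes that fell in PyMT organoids included developmental regulators. Of 29 tested transcription factors of mammary and limb development, 6 were lower and 2 higher, beside 10.9% lower and 7.20% higher of all genes tested. The higher count fell to 0 without undated PyMT replicate 1 or Neu-NDL replicate 2 or 3. The lower count fell to 4 without either undated PyMT replicate. *Eya1*, a transcriptional coactivator and phosphatase of organ development, had 0.163, 0.202, 0.0964 and 0.144 CPM in PyMT libraries, against 5.95, 23.3 and 7.94 CPM in Neu-NDL libraries and 1.01 to 1.66 CPM in WT libraries. It fell by 6.35 (SE 0.58, adjusted p 0.00110), and the left-out replicate, at 0.112 CPM, lay with the other PyMT libraries. *Lmx1b*, a homeobox factor of limb and kidney development, had 13.4, 4.89, 7.004 and 5.46 CPM in PyMT libraries, against 32.7, 23.8 and 21.1 CPM in Neu-NDL libraries (log2 fold change -1.78, SE 0.34, adjusted p 0.0111). *Tbx2*, a T-box repressor, had 0.217 to 0.739 CPM in PyMT libraries and 1.61 to 6.22 CPM in Neu-NDL libraries (log2 fold change -2.74, SE 0.50, adjusted p 0.00937).

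A mixed list of ion channels, carriers and neural receptors was lower in 9 of 24 tested members and higher in 1, with a median of -1.03. It was chosen with earlier results of these data known, so its share is not read as a result about these gene classes. *Reln*, the extracellular guidance protein reelin, had 0.163, 0.169, 0.129 and 0.395 CPM in PyMT libraries, against 20.3, 3.20 and 8.81 CPM in Neu-NDL libraries and 12.2 to 27.7 CPM in WT libraries (log2 fold change -5.68, SE 0.71, adjusted p 0.00245). *Slc25a34*, a mitochondrial carrier, had 44.6, 20.6, 3.47 and 4.06 CPM in PyMT libraries, against 103, 208 and 111 CPM in Neu-NDL libraries and 0.440 to 0.746 CPM in WT libraries (log2 fold change -3.67, SE 0.34, adjusted p 0.00116). *Slc39a8*, a zinc and manganese importer, had 1.45 to 3.69 CPM in PyMT libraries and 10.6 to 27.9 CPM in Neu-NDL libraries (log2 fold change -3.06, SE 0.44, adjusted p 0.00410). These 3 stayed called with the left-out replicate in. *Kcnn4*, a calcium activated potassium channel, had 540, 313, 297 and 278 CPM in PyMT libraries, against 692, 969 and 919 CPM in Neu-NDL libraries (log2 fold change -1.30, SE 0.21, adjusted p 0.00673), while the left-out replicate had 1400 CPM.

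Among the largest falls were genes whose Neu-NDL level came from only some libraries. *Cd177*, a surface protein of neutrophils, had 1.25, 1.62, 2.09 and 1.76 CPM in PyMT libraries, against 6.18, 230 and 191 CPM in Neu-NDL libraries (log2 fold change -6.41, SE 1.02, adjusted p 0.00616). *Fetub*, a secreted protease inhibitor, had 2.01, 6.17, 0.996 and 1.29 CPM in PyMT libraries, against 13.7, 148 and 438 CPM in Neu-NDL libraries (log2 fold change -6.51, SE 1.03, adjusted p 0.00594). *Dlk1*, an imprinted gene of the Notch ligand family, had 0.217, 0.0674, 0.0643 and 0.0719 CPM in PyMT libraries, against 76.9, 11.1 and 2.28 CPM in Neu-NDL libraries (log2 fold change -8.27, SE 1.42, adjusted p 0.00795). In *Cd177* and *Fetub* Neu-NDL replicate 1 was the lowest of its group, and in *Dlk1* it was the highest.

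Interferon response genes were lower in PyMT organoids in 9 of 28 tested members and higher in none, with a median of -1.35. Among the called members were *Stat2*, *Usp18*, *Oas1g*, *Gbp3*, *Ifit3*, *Oasl1*, *Cmpk2* and *Irf7*. In many such genes the interferon signal acts through the interferon stimulated response element, bound by a complex that contains STAT2 and IRF9. The element, searched for as GAAA, any 2 bases and GAAA on both strands in RefSeq promoters of the GRCm38.p6 build (250 bases before to 50 after each gene's start), was present at 4 of the 7 called members with a promoter in the table, at 14 of the 22 list members with one (63.6%) and at 3.7% of the 12243 tested genes with one. The 4 called members that held it are shown with 15 bases on either side, the element in capitals, to let its shared core be seen. They lie at chr10:128270261-128270300 (Stat2, + strand), chr5:120887601-120887646 (Oas1g, - strand), chr3:142559984-142560029 (Gbp3, + strand) and chr19:34583358-34583397 (the first of 2 at Ifit3, + strand), each written 5′ to 3′ on its gene's strand.
Stat2: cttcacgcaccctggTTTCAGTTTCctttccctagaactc
Oas1g: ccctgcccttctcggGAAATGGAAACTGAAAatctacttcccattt
Gbp3: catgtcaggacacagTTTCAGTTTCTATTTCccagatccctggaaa
Ifit3: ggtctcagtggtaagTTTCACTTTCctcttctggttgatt
The capitals are longer where 2 matches overlap, and a match is a description of the letters only.

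*Stat2* had 39.6, 34.8, 43.2 and 36.7 CPM in PyMT libraries, against 61.5, 64.1 and 88.9 CPM in Neu-NDL libraries and 20.8 to 27.7 CPM in WT libraries (log2 fold change -0.89, SE 0.17, adjusted p 0.0104). *Usp18*, which removes ISG15 from proteins and dampens the interferon receptor, had 17.5, 7.35, 4.34 and 3.38 CPM in PyMT libraries, against 22.1, 16.2 and 74.0 CPM in Neu-NDL libraries (log2 fold change -2.44, SE 0.61, adjusted p 0.0288). *Oas1g*, a sensor of double stranded RNA, had 11.8, 5.86, 4.21 and 3.27 CPM in PyMT libraries, against 11.4, 13.9 and 34.9 CPM in Neu-NDL libraries, and the sides overlapped. *Irf7*, the factor that amplifies interferon production, had 67.0, 30.1, 39.7 and 23.3 CPM in PyMT libraries, against 71.8, 81.7 and 208 CPM in Neu-NDL libraries. Neu-NDL replicate 3 was the highest of the 7 libraries in all 4 genes. Without it, or without either undated PyMT replicate, 1 member of the list was called. DESeq2 called 18 members lower and edgeR 20 at an unadjusted p under 0.05. The left-out replicate had 69.2 CPM of *Stat2* and 274 CPM of *Irf7*, and no member was called with it in. Macrophage markers, given next, were lower in PyMT libraries too, and their part in the interferon result was not tested.

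Markers of other cell types also differed between the sides, and for them values are given without a test, since they served to leave out a library. The 19 macrophage and myeloid genes summed to 74.0, 229, 130 and 200 CPM in PyMT libraries, against 2399, 2502 and 613 CPM in Neu-NDL libraries, 118 to 225 CPM in WT libraries and 836 CPM in the left-out replicate. All 4 PyMT libraries lay below all 3 Neu-NDL libraries in 18 of the 19 genes (15.2% of all genes tested), with a median log2 fold change of -5.51, or -3.40 with the left-out replicate in. No member was at 0 in all 4 PyMT libraries, and *Cx3cr1* was at 0 in 1 of them. *Mpeg1*, the pore protein perforin-2 of macrophages, had 2.23, 1.65, 5.59 and 4.93 CPM in PyMT libraries, against 242, 260 and 81.4 CPM in Neu-NDL libraries. The exception was *S100a8*, a calgranulin of neutrophils and of stressed squamous epithelium, which had 33.9, 183, 50.4 and 86.6 CPM in PyMT libraries, against 3.75, 9.55 and 1.29 CPM in Neu-NDL libraries and 2.85 CPM in the left-out replicate. In bulk RNA, fewer cells of a type cannot be told apart from less RNA per cell.

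Genes known from macrophages also fell outside that list. They are no separate support for it, since macrophage markers served to leave out a library. *Siglec1*, a sialic acid receptor of tissue macrophages, had 0.326, 0.270, 0.386 and 0.467 CPM in PyMT libraries, against 35.2, 68.0 and 23.2 CPM in Neu-NDL libraries (log2 fold change -6.88, SE 0.41, adjusted p 0.000181). *Gpnmb*, a lysosomal glycoprotein, had 0.326, 0.506, 1.83 and 1.91 CPM in PyMT libraries, against 126, 206 and 27.2 CPM in Neu-NDL libraries (log2 fold change -7.06, SE 0.74, adjusted p 0.00131). *Mmp12*, macrophage elastase, had 5.37, 5.595, 20.95 and 27.1 CPM in PyMT libraries, against 383, 222 and 26.7 CPM in Neu-NDL libraries (log2 fold change -4.20, SE 0.75, adjusted p 0.00889). Neu-NDL replicate 3, with the lowest macrophage sum of its group, was also its lowest library in these 3 genes, and for *Mmp12* it overlapped the PyMT range. The left-out replicate had 2.81, 0.900 and 1.31 CPM of them, and they stayed called with it in. Its macrophage sum of 836 CPM lay within the Neu-NDL range instead, so these 3 genes do not speak for the list. *Ctss*, cathepsin S, had 2.93 to 12.8 CPM in PyMT libraries, 66.2 to 305 CPM in Neu-NDL libraries and 103 CPM in the left-out replicate. No test is given for it, as for the macrophage markers. The part of the macrophage markers in these results was not tested.

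The 18 fibroblast and matrix genes summed to 463 to 1399 CPM in PyMT libraries, against 7982, 624 and 600 CPM in Neu-NDL libraries, 1870 to 3016 CPM in WT libraries and 4485 CPM in the left-out replicate. Neu-NDL replicate 1 alone was high, and the sums of both sides overlapped. *Col1a2*, a chain of type I collagen, had 9.66, 10.2, 36.7 and 28.4 CPM in PyMT libraries, against 1060, 47.2 and 67.7 CPM in Neu-NDL libraries. The 14 endothelial genes summed to 44.96 to 95.7 CPM in PyMT libraries, 17.3 to 94.4 CPM in Neu-NDL libraries, 28.2 to 92.2 CPM in WT libraries and 292 CPM in the left-out replicate. Most of the PyMT sum was *Flt1*, a VEGF receptor, which had 57.7, 36.2, 79.5 and 50.7 CPM in PyMT libraries, against 7.39, 2.64 and 0.986 CPM in Neu-NDL libraries. In 7 of the 14 genes all 4 PyMT libraries lay below all Neu-NDL libraries, as they did in 15.2% of all genes tested. Of 16 genes of T, B and NK cells, 10 to 13 were at 0 in each PyMT library and 3 to 8 in each Neu-NDL library. In each WT library 6 to 11 were at 0, and in the left-out replicate 1. PyMT libraries held fewer counts (19046725 to 36047117) than Neu-NDL libraries (35235829 to 48341438). No share of zeros over all genes was taken, so the zeros are not read as a PyMT trait. The 15 antigen presentation genes summed to 1783 to 2424 CPM in PyMT libraries, 2933 to 3816 CPM in Neu-NDL libraries, 1157 to 1527 CPM in WT libraries and 6230 CPM in the left-out replicate.

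**Figure D4:**
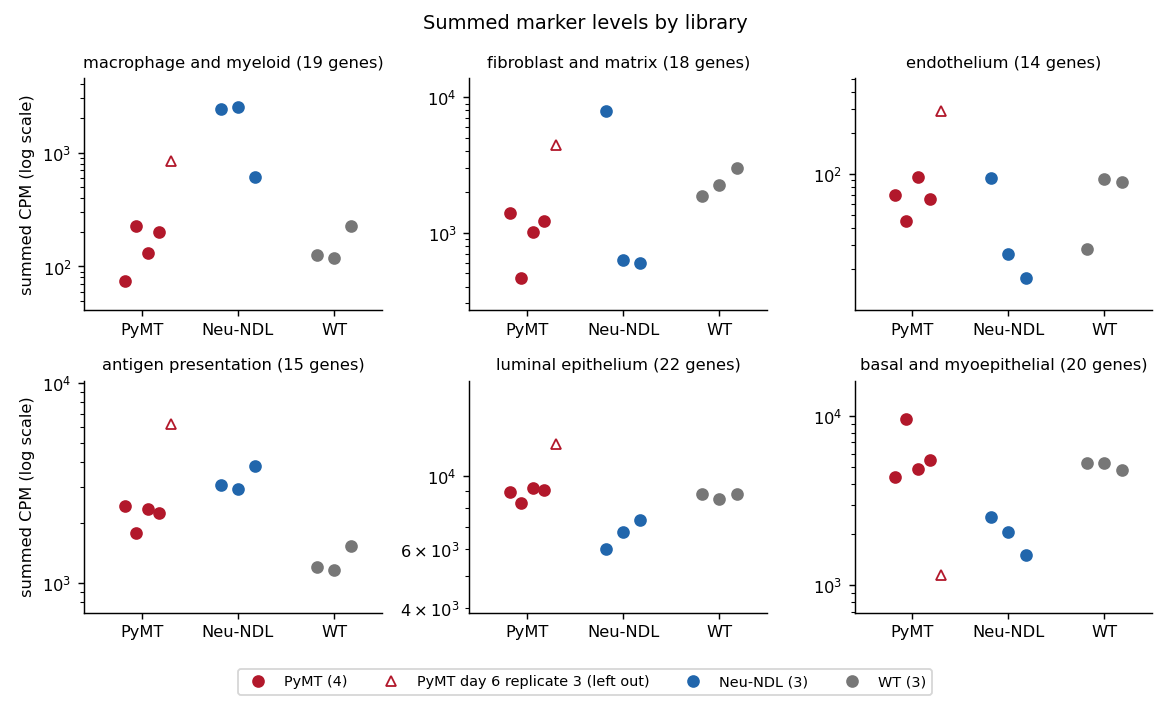
Summed CPM (log axis) of 6 marker lists in each 6 day organoid library, with PyMT in red, the left-out PyMT day 6 replicate 3 as an open triangle, Neu-NDL in blue and WT in grey. Macrophage genes summed to at most 229 CPM in PyMT libraries and at least 613 CPM in Neu-NDL libraries, and basal genes to at least 4377 CPM in PyMT libraries and at most 2523 CPM in Neu-NDL libraries.

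Long noncoding genes were called lower in PyMT organoids more often than higher: of 1706 tested, 34 were higher (1.99%) and 222 lower (13%), beside 7.79% higher and 11.1% lower among 14742 protein coding genes. PyMT libraries also had fewer genes detected (20578 to 22270) than Neu-NDL libraries (22449 to 23388). Reads outside genes made up 5.7 to 8.37% in PyMT libraries and 8.37 to 9.41% in Neu-NDL libraries. The part of these differences in the noncoding counts was not tested. *C530043A13Rik*, a long intergenic RNA, had 12.4, 10.01, 15.7 and 14.6 CPM in PyMT libraries, against 373, 119 and 57.3 CPM in Neu-NDL libraries and 96.1 to 245 CPM in WT libraries (log2 fold change -3.82, SE 0.60, adjusted p 0.00579). *Kcnq1ot1*, an antisense RNA that silences an imprinted gene cluster, had 11.3, 9.91, 16.0 and 19.02 CPM in PyMT libraries, against 25.3, 25.9 and 26.1 CPM in Neu-NDL libraries (log2 fold change -0.92, SE 0.15, adjusted p 0.00623). Since the strand setting of the counts is not given, its reads cannot be told from those of the coding gene whose introns it overlaps. *Snhg5*, a host gene of small nucleolar RNAs, was among the few that rose, with 31.7, 39.5, 34.3 and 42.2 CPM in PyMT libraries, against 23.4, 21.04 and 13.3 CPM in Neu-NDL libraries (log2 fold change 0.94, SE 0.21, adjusted p 0.0194), and lost its call without PyMT day 6 replicate 2. The first 2 stayed called in every leave-out and with the left-out replicate in.

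Tumor sections of the models gave libraries that the organoid comparison did not use: 3 of MMTV-PyMT and 3 of MMTV-Cre;Flox-Neo-Neu-NT tumors, which carry another activated Neu. Between them 149 genes were higher in PyMT (0.936% of 15914 tested) and 178 lower (1.12%), 2.05% together, in edgeR's test. Of the genes higher in PyMT organoids, 42.0% had the same sign in sections, where 47.7% of all genes did, and of those lower in PyMT organoids 57.0% did, where 52.3% of all genes did. Of the organoid genes called higher, 9 were called higher and 31 lower in sections. Of those called lower, 14 were called lower and 16 higher. *Slc39a8* was lower in both (log2 fold change -2.04 in sections, adjusted p 0.0444), whereas *Egf* was higher in PyMT sections (3.32, adjusted p 0.0444). *Erbb2* did not pass the test between sections (-2.90, adjusted p 0.0703). Without Neu-NT section replicate 3 the same-sign shares became 55.2% (52.0% of all genes) and 50% (48.0%) and the calls 1540 and 1702, and leaving out any other section left at most 1 call in either direction.

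**Figure D5:**
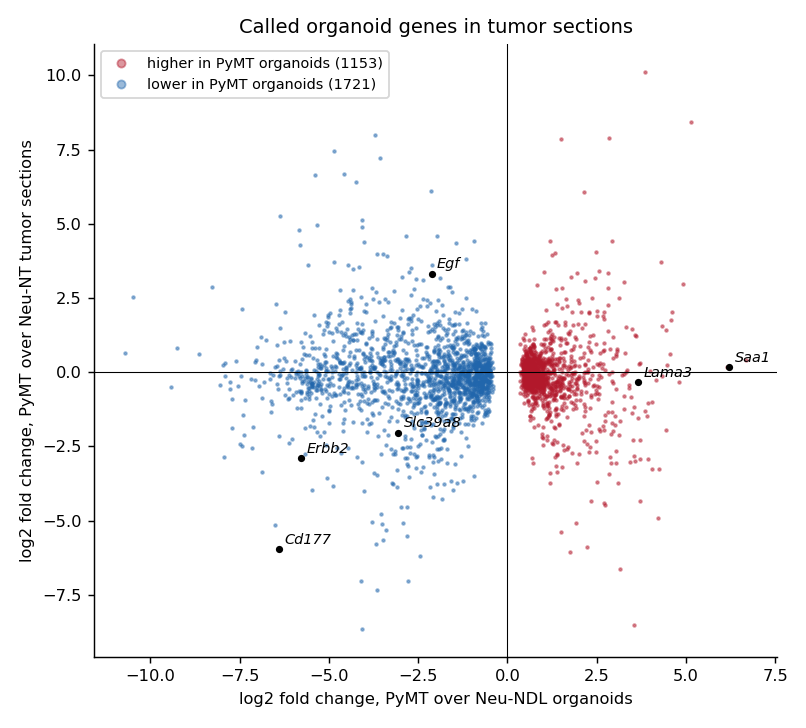
Each point is a gene called between organoids and tested between sections (1153 higher in PyMT organoids, red; 1721 lower, blue), with its log2 fold change between organoids on the x axis and between tumor sections, PyMT over Neu-NT, on the y axis. Points of both colors spread on both sides of 0 on the y axis, with the same sign for 42.0% of the higher and 57.0% of the lower genes.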

How the data were processed

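RNA from 20 libraries (polyA+ selected, per the labels' protocols) had been counted per gene, and the deposited values are raw counts of reads by gene ID. The submitters' processing notes name CASAVA, FastQC, STAR, HTSeq and DESeq2, with no role or version, and mm10; the strand setting is not given in the sources used here. Gene names came from GENCODE M21 (44585 of 45318 IDs matched). The 10 organoid libraries kept 6 days without PyMT day 6 replicate 3 were fitted with edgeR 4.0.16 (R 4.3.3): filterByExpr, TMM scaling, robust quasi-likelihood test, 4 groups, mean of dated and undated PyMT minus Neu-NDL, 6 residual degrees of freedom, Benjamini-Hochberg adjustment over 17743 genes, threshold 0.05. The fit was tested on simulated data. DESeq2 1.42.0, other library sets, scalings and leave-outs were alternatives.

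The libraries and gene lists were chosen with earlier results of these data known. Named genes were the 14 largest rises and falls past the threshold with non-overlapping libraries and a mean of 10 CPM or more on the higher side, predicted names, pseudogenes and members of lists used to leave out a library excepted; the 4 largest among noncoding or predicted genes; *Erbb2*; up to 4 called members per list and direction, or its 2 most abundant members where none was called; and the 3 most abundant members of lists used to leave out a library. The text gives a selection, and some items are not reported here. Outside the rule, and chosen after their values were seen, were *Acta2*, *Axin2*, *Car13*, *Cdh3*, *Cmpk2*, *Cx3cr1*, *Epcam*, *Erbb3*, *Evpl*, *Gbp3*, *Ifit3*, *Irf7*, *Itga3*, *Itga6*, *Krt14*, *Krt17*, *Krt19*, *Krt5*, *Mki67*, *Muc1*, *Oasl1*, *Scn8a*, *Spry4*, *Trp63* and *Vegfa*.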

Additional observations from a re-analysis of the deposited data

Results flagged for a closer look

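Of 102 named genes, 4 had 1 of the 4 PyMT libraries far from the other 3 by Dixon's test on log2(CPM + 0.1) at its 95% critical value. Chance gives about 1 group in 20, but most of these genes were named for their values in these libraries. That rate need not hold for them, so the number of flags is not read against it. PyMT day 6 replicate 2 was the high library for *Krt90* (463.9 CPM) and *Evpl* (174.5 CPM). PyMT day 6 replicate 1 was the high library for *Dlk1* (0.217 CPM), and undated PyMT replicate 2 the low one for *Scn8a* (14.38 CPM).

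PyMT day 6 replicate 3, which the comparison does not use, carried markers of other cell types above the 4 PyMT libraries and above WT organoids. Its macrophage and myeloid genes summed to 836.1 CPM, its fibroblast and matrix genes to 4485 CPM, its endothelial genes to 292.0 CPM and its antigen presentation genes to 6230 CPM. Its log2 CPM over genes correlated with PyMT tumor section replicate 3 at r 0.991. The cause was not tested.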

How the results depend on the processing

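The counts of genes higher and lower in PyMT organoids were 1277 and 1938. They were 397 and 696 with only the 7 libraries compared, 234 and 476 with PyMT day 6 replicate 3 kept in (11 libraries), 453 and 878 with it in a fit of all 20 libraries, and 535 and 635 with the dated PyMT libraries alone. Undated libraries alone gave 983 lower, and DESeq2 gave 2052 higher. Leaving out each library gave 586 to 1558 higher and 730 to 2073 lower. The libraries that moved a count by over 1.5 times were PyMT day 6 replicate 2 (673 higher, 977 lower), undated replicate 1 (623, 730), undated replicate 2 (1141 lower), Neu-NDL replicates 2 and 3 (589 and 586 higher) and WT replicate 2 (845 higher). The replicate block is given below, and the other settings run stayed within 1.5 times. The cause of these shifts was not tested. *Axin2*, not called, changed sign with undated PyMT libraries alone (-0.93) and without PyMT day 6 replicate 2, and ranged over the leave-outs between -0.24 and 3.27.

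Whether replicate numbers pair the libraries could not be told. Same-numbered PyMT and Neu-NDL libraries had correlations of deviations of 0.044, 0.273, 0.004 and 0.054, and differently numbered ones of -0.273 to 0.143. Within the dated and within the undated PyMT libraries the deviations are equal and opposite, so this check cannot exclude pairing. With the number as a replicate block, 417 genes were higher and 729 lower.

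Between tumor sections (149 higher, 178 lower), leaving out each library gave 0 to 1540 higher and 0 to 1702 lower. Without a filter on low counts 246 were higher. With the replicate block edgeR called 0 and 0 (1544 and 1404 at an unadjusted p under 0.05; DESeq2 was not run on sections).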
